A study of Arabidopsis thaliana with 6 samples.

Results

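Leaf senescence is the last stage of a leaf's life, in which chlorophyll and proteins are broken down and their nutrients are moved to growing organs. The genes described here are 10 Arabidopsis thaliana loci, chosen by name as known senescence regulators and markers from the 32548 genes of each deposited table. Their loci are NAP (AT1G69490), ORE1 (AT5G39610), ORS1 (AT3G29035), JUB1 (AT2G43000), NAC016 (AT1G34180), EIN3 (AT3G20770), SAG12 (AT5G45890), SAG13 (AT2G29350), SAG21 (AT4G02380) and SAG29 (AT5G13170). All 10 have a row in both tables. The rule that picks them uses their names and no measured value, but they were chosen with earlier results of these data known. In the epl1a/b libraries NAP and SAG29 were 4.79-fold and 3.86-fold lower than in wild type, and SAG21 was 4.45-fold higher. ORE1 was 1.76-fold lower, a call that was lost in 3 of the 4 fits that left out 1 library.

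RNA-seq libraries came from Col-0, the standard laboratory accession, and its mutant, as 2-week-old plate-grown seedlings. By their labels, 2 libraries are wild type and 2 are epl1a/b, a double mutant of EPL1A and EPL1B, which encode enhancer of polycomb-like subunits of the NuA4 histone H4 acetyltransferase complex. A separate table holds 1 Col-0 library kept in darkness under foil and 1 Col-0 library kept in light. How long darkness lasted was not stated in the labels. For all 6 libraries, the dark one included, the labels list days of 16 hours, nights of 8 hours and a temperature of 23 °C. The labels give seedlings as the material and name no separation of leaf from root. The labels do not describe the epl1a/b alleles. H4K5Ac, a histone mark, opens the titles of the libraries labelled epl1a/b although their other labels give total RNA, and epl1a/b below means the libraries so labelled, read as RNA-seq. The labels do not say whether replicate libraries had separate cultures behind them. The p-values thus reflect library-to-library spread that may be technical.

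The normalised counts of the genotype table could be turned back into whole reads for every gene, between 18796289 and 19088784 reads per library, and the dark and light libraries held 18798088 and 27831231 reads. In the libraries labelled epl1a/b, EPL1A fell by 1.54 ± 0.16 (SE) on the log2 scale, and EPL1B rose by 3.72 ± 0.07, from 335 and 351 normalised counts in wild type to 4656 and 4399, with limma adjusted p = 0.000233 and 7.41e-07. EPL1B reads were thus higher, not lower, in the mutant, and where they fall along the gene was not analysed here. All 4 leaf markers examined (RBCS1A, LHCB1.3, RCA and PSBP1) fell, from summed levels of 713700 to 774700 normalised counts in wild type to 357800 to 360500 in epl1a/b. Of 4 root markers 2 rose (PYK10 and NRT2.1) and 2 fell (CASP1 and IRT1), with sums of 37510 to 45880 against 82960 to 90590. PYK10 made up nearly all of these sums, at 36550 and 44770 in wild type and 82480 and 89940 in epl1a/b. CASP1 fell from 664 and 651 to 308 and 447, and IRT1 was at 0 in both epl1a/b libraries. Of 11 seed storage markers 5 were at 0 in all 4 libraries, 2 of the 4 tested rose, and the sums were 18.7 to 19.0 against 58.6 to 82.9. In bulk seedlings, fewer cells of a type and less RNA per cell cannot be told apart, and the part of these markers in the changes below was not tested.

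NAC proteins are a large plant family of transcription factors, and several of them act as timers of senescence. The membrane protein EIN2 passes the ethylene signal to the transcription factor EIN3, which activates the genes of the NAC factors ORE1 and NAP and represses the microRNA miR164, a repressor of ORE1. NAP, ORE1, ORS1 and NAC016 promote senescence, and JUB1 delays it. SAG genes are named for their transcripts in senescing leaves. SAG12 encodes a cysteine protease and is the most senescence-specific of those here. SAG13 encodes a short-chain dehydrogenase and SAG21 a late embryogenesis abundant protein, and both also respond to stress. SAG29 encodes SWEET15, a sugar exporter.

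ORE1 is shown first by the sequence through which miR164 acts on it. The mature miR164a, read from the RefSeq annotation of TAIR10.1 at chr2:19520770-19520790 on the plus strand, is identical to miR164b-5p. The capitals mark its seed, bases 2 to 8 from the 5′ end.

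miR164a: uGGAGAAGcagggcacgugca

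The coding sequences and other exons of the 10 genes and of the 102 genes annotated as NAC family were searched for sites with at most 4 mismatches to the reverse complement of miR164a. These 102 were found by words in their annotation, and the list is incomplete, lacking at least the NAC factor NTL9. ORE1 had such a site with 4 mismatches, at chr5:15858797-15858817 on the minus strand, and 5 other NAC genes had sites with 2 or 3. The best match in ORS1, the close relative of ORE1, had 6 mismatches, and the best matches of the remaining members had 6 to 10. All 6 sites lie in coding sequence. The sites below are written 5′ to 3′ as RNA, with capitals at each base that differs from the reverse complement of miR164a (G-U pairs are counted as mismatches), so that the 4 mismatches of ORE1 can be set beside those of its relatives.

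NAC1: AgcacguAcccugcuucucca
NAC100: uCUacgugcccugcuucucca
CUC1: AgcacgugUccugUuucucca
ORE1: CUcacgugAccugcuucuccG

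A match of letters is a description and not a measure of cleavage. The microRNA precursors were barely sampled by these libraries. MIR164A had 0 reads in all 4 genotype libraries, and MIR164B, at 5.25 and 3.13 normalised counts in wild type and 1.71 and 2.64 in epl1a/b, did not pass the test (limma adjusted p = 0.340).

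The promoters of NAP, SAG21 and SAG29, the members called under every alternative analysis, are shown next. Each run is the 250 bases just before the annotated gene start in TAIR10.1, 5′ to 3′ on the gene's strand. The window is chr1:26121830-26122079 for NAP on the plus strand. Capitals mark a G-box (CACGTG), bound by bZIP and bHLH factors, and the core of the W-box bound by WRKY factors (TTGAC, or GTCAA on the other strand).

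NAP promoter: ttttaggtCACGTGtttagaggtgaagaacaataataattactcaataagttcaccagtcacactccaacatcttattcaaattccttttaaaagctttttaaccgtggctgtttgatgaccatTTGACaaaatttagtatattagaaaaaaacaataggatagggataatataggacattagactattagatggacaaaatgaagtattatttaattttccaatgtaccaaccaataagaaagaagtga
SAG21 promoter: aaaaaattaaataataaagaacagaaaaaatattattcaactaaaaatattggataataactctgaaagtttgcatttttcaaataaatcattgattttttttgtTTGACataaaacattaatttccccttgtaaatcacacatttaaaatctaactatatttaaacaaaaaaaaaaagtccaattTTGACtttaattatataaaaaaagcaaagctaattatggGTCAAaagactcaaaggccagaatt
SAG29 promoter: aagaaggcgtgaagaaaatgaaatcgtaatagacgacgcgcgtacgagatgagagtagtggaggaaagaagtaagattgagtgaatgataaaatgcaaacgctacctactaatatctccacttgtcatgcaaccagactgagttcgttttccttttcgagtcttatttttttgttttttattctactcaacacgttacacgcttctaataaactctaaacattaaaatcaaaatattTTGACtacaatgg

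The NAP window was the only one of the 10 with CACGTG on either strand, starting 242 bases before the gene start. That motif was found in 6.49% of the windows of 27443 protein-coding genes. The W-box core was found in 5 of the 10 windows (NAP, JUB1, SAG13, SAG21 and SAG29) against 44.9% of all windows. The SAG21 window held it at 3 positions, and the share of all windows with as many was not counted. The core ACGTG of the abscisic acid response element, which overlaps the G-box of NAP, was in 3 windows (NAP, SAG13 and SAG29) against 22.9% of all. The letters CATGTG, a NAC-binding core, were in 1 window (SAG12) against 11.1%. These are matches of letters, and binding at them was not analysed here.

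The genotype comparison sets epl1a/b against wild type. Over all 23658 genes tested with limma, 22.5% were called higher and 24.1% lower in epl1a/b at an adjusted p under 0.05, so a call alone does not set a gene apart. Of the 10 members 9 could be tested, because SAG12 had no reads. SAG21 was called higher, NAP, ORE1 and SAG29 were called lower, and 5 were not called. The median log2 change of the 9 was -0.01, and that of all genes was 0.02. With each library scaled to the same total, the median of all genes moved to 0.26 and that of the members to 0.23, and the share of higher genes among all calls moved from 48.3% to 70.6%.

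NAP, the NAC factor that acts through abscisic acid signalling, has 3 exons at chr1:26122080-26123514 on the plus strand (TAIR10.1, as for all positions here). It stood at 358 and 333 normalised counts in wild type and at 79.0 and 64.4 in epl1a/b. Both mutant libraries lay far below both wild type libraries. The log2 change was -2.26 ± 0.15 (SE, 2 libraries per genotype), with limma adjusted p = 1.85e-05. Among the 92 tested NAC-family genes, where 30 were called higher and 6 lower (17 to 25 and 2 or 3 with 1 library left out), NAP had the most negative change of those called lower, ahead of ORE1. The other 4 were NAC069, NAC089, NAC017 and NAC014, with log2 changes of -0.48, -0.42, -0.41 and -0.33, and they were picked out after their values were seen. NAC017 was called in all 4 fits that left out 1 library and NAC089 in 1 of them, while NAC069 and NAC014 lost their call in each.

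ORE1, also called NAC092, has 3 exons at chr5:15858398-15859911 on the minus strand. It had 186 and 255 normalised counts in wild type and 128 and 119 in epl1a/b. The genotypes did not overlap, and the wild type libraries differed from each other more than the mutant libraries did. The log2 change was -0.82 ± 0.17 with limma adjusted p = 0.00583. This call was lost in 3 of the 4 fits that left out 1 library. Leaving out wild type replicate 2 gave a log2 change of -0.59 (limma adjusted p = 0.0507), leaving out the first mutant replicate gave -0.87 (0.0596), and leaving out the second gave -0.77 (0.0817).

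ORS1, the paralogue of ORE1, had 305 and 284 normalised counts in wild type and 271 and 227 in epl1a/b. The mutant libraries lay below the wild type ones, but the log2 change of -0.25 ± 0.12 did not pass the test (limma adjusted p = 0.132). With each library scaled to the same total it was -0.01. Whether ORE1 and ORS1 differ in their change was not tested.

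JUB1, the NAC factor that delays senescence, was measured from few reads. It had 15.0 and 36.1 normalised counts in wild type and 63.7 and 31.6 in epl1a/b, so the genotypes overlapped. The log2 change was 0.91 ± 0.50 with limma adjusted p = 0.183. Of its exon length 7.78% is shared with a neighbouring gene, AT2G42990, which was itself called higher, at 10.7 and 18.6 normalised counts in wild type and 50.9 and 40.8 in epl1a/b (limma adjusted p = 0.00650, called in 1 of the 4 fits that left out 1 library). The sources used here do not say whether counting used strand, so reads in the shared stretch cannot be told apart. NAC016, whose mutants stay green, was as thinly covered, with 26.6 and 48.6 normalised counts in wild type and 44.0 and 30.2 in epl1a/b. Its genotypes overlapped, and its log2 change was 0.02 ± 0.35.

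EIN3, the ethylene-signalling factor upstream of ORE1 and NAP, had the smallest standard error of the 9 tested members. It had 3050 and 3052 normalised counts in wild type and 3146 and 2934 in epl1a/b, and the mutant values lay on either side of the wild type ones. The log2 change was -0.01 ± 0.07 (limma adjusted p = 0.953). With each library scaled to the same total, the change became 0.23 and passed the test (adjusted p = 0.0258), at nearly the same value as the all-gene median of 0.26 under that scaling.

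**Figure D1:**
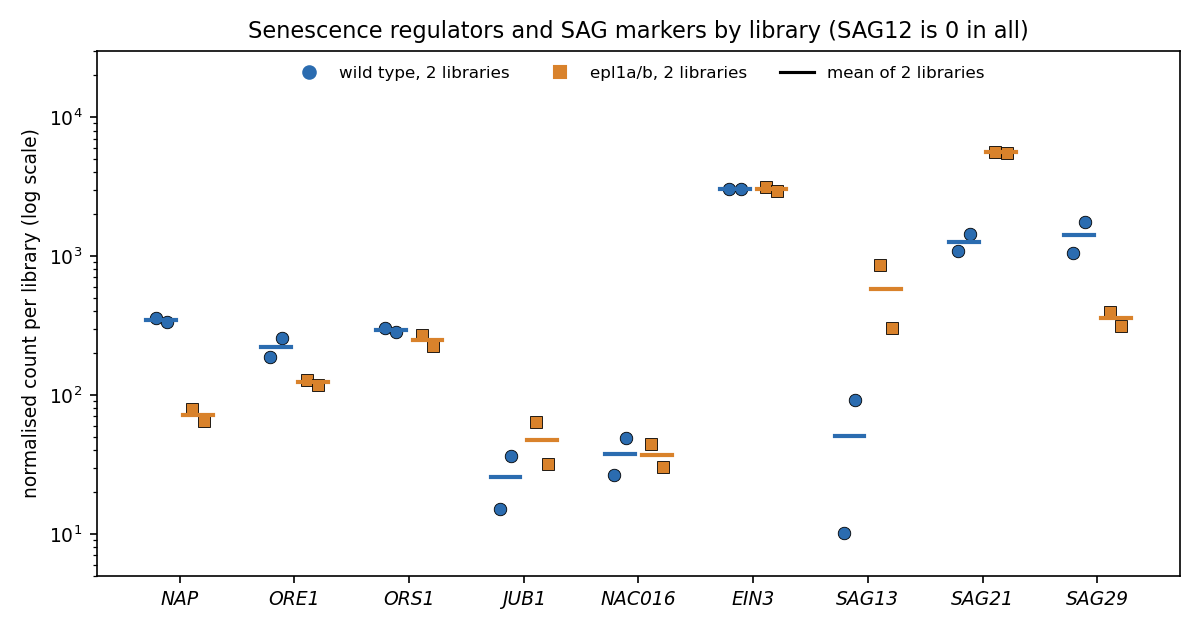
Normalised count per library (log axis) of the 9 members with reads, with circles for the 2 wild type libraries, squares for the 2 epl1a/b libraries and a bar at each mean. NAP, ORE1 and SAG29 sit lower and SAG21 higher in both epl1a/b libraries, EIN3 stays near 3050, and the SAG13 libraries spread from 10.1 to 857.

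The SAG markers did not move as a block. SAG12 had 0 reads in every one of the 6 libraries. The limit that a count of 0 allows, 3 reads, corresponds to 0.108 to 0.160 RPM (reads scaled by the library total), so a lower level was not detectable at this depth.

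SAG21 has 2 exons at chr4:1046042-1047105 on the minus strand. It had 1077 and 1444 normalised counts in wild type and 5617 and 5500 in epl1a/b. Both mutant libraries lay well above both wild type libraries. The log2 change was 2.16 ± 0.14 with limma adjusted p = 5.59e-05. An annotated gene on the same stretch, AT4G04125, covers 18.6% of the SAG21 exon length, and it had 0 counts in every library.

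SAG29, the sugar exporter SWEET15, went the other way. It has 6 exons at chr5:4181042-4183354 on the minus strand. It had 1054 and 1764 normalised counts in wild type and 398 and 313 in epl1a/b. The wild type libraries differed from each other by more than the mutant ones, and both lay above them. The log2 change was -1.95 ± 0.30 with limma adjusted p = 0.0120.

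SAG13, with 4 exons at chr2:12600914-12602556 on the plus strand, had the largest standard error of the set. It had 10.1 and 91.7 normalised counts in wild type and 857 and 304 in epl1a/b, resting on 98 wild type reads and 1328 mutant reads. The genotypes did not overlap, but the libraries within each genotype lay far apart, and the log2 change of 3.99 ± 1.56 did not pass the test (limma adjusted p = 0.170). Count models on the recovered reads gave a log2 change of 3.52 and called it, with adjusted p = 0.00888 from edgeR's quasi-likelihood test and 0.0426 from DESeq2. Without wild type replicate 2 limma called it as well, at 5.52 (adjusted p = 0.0121). The other 3 fits that left out 1 library gave 2.46 to 4.74 with no call.

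SAG13 lies in a row of related short-chain dehydrogenase genes on chromosome 2, which were looked at after the values of SAG13 were seen. Of the 9 neighbours in that row, AT2G29290, AT2G29300, AT2G29310, AT2G29320 and AT2G29360 were called lower in epl1a/b, with log2 changes of -1.31, -1.36, -1.18, -1.41 and -0.41. The other 4 (AT2G29260, TRI, AT2G29340 and AT2G29370) were not called, with changes of 0.09, 0.21, 0.15 and 1.81. Over all genes tested 24.1% were called lower and 22.5% higher, and the row was not tested against these shares. AT2G29290, AT2G29310 and AT2G29320 were called in all 13 alternative analyses. AT2G29300 lost its call without wild type replicate 1 (limma adjusted p = 0.0610), and AT2G29360 was called in 1 of the 4 fits that left out 1 library and lost its call with each library scaled to the same total. Of the 50-base words of the SAG13 exons, 0.0706% occur elsewhere in the genome.

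Per kilobase of exon, the only scale on which levels of different genes are compared here, SAG21, EIN3 and SAG29 were the most abundant members in wild type. Their levels were 1113 and 1492, 1246 and 1247, and 781 and 1306 normalised counts per kilobase, and these ranges overlapped, so their order is not resolved. NAP followed at 286 and 266, ORS1 at 213 and 198, and ORE1 at 142 and 194, each without overlap with the next. SAG13 (7.41 and 67.1), JUB1 (10.9 and 26.3) and NAC016 (11.6 and 21.1) overlapped at the bottom, above SAG12. In epl1a/b SAG21 led at 5802 and 5682, SAG13 reached 626 and 223, and NAP stood at 63.1 and 51.4, below both ORS1 (189 and 158) and ORE1 (97.3 and 90.5).

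Darkness is a common way to induce leaf senescence, and the second table sets a dark library beside a light one. With 1 library each, no difference has a replicate check and no p-value is given. Levels are CPM, counts relative to the TMM-scaled library total, ratios carry exact 95% Clopper-Pearson intervals that cover counting error only, and a gene counts as higher or lower at a 2-fold difference. Of all 21128 genes with at least 10 reads in total, 15.7% were at least 2-fold higher and 19.4% at least 2-fold lower in the dark library. Of the 8 members with a ratio, 4 were higher (NAP, ORS1, JUB1 and ORE1) and 1 was lower (SAG29), with a median log2 ratio of 1.23 against -0.02 over all genes.

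NAP was at 12.9 CPM in darkness and 1.98 in light, a log2 ratio of 2.65 (95% interval of the ratio 4.82 to 8.99). ORS1 was at 32.0 and 6.72 CPM, a log2 ratio of 2.24 (4.02 to 5.66). ORE1 was at 10.2 and 3.30 CPM, a log2 ratio of 1.61 (2.40 to 4.03). These 3 NAC genes, all promoters of senescence, were thus higher in the dark library than in the light one by more than counting error. Against the wild type libraries of the genotype table, dark NAP was lower in RPM and dark ORE1 lay between them, as given at the end.

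JUB1 was higher as well, but on 31 reads against 8, with 1.53 and 0.311 CPM and an interval of 2.21 to 12.3. NAC016, at 3.15 and 2.41 CPM, had an interval of 0.907 to 1.88, so a difference was not detectable at this depth. EIN3 was at 230 and 126 CPM, a log2 ratio of 0.86 (1.74 to 1.90), short of 2-fold. With library totals in place of TMM scaling its log2 ratio was 1.09, past 2-fold, while the all-gene median moved to 0.21.

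Among the SAG markers, SAG29 was at 4.33 CPM in darkness and 10.5 in light, a log2 ratio of -1.26 (0.322 to 0.528). SAG21 was at 215 and 174 CPM, a log2 ratio of 0.30 (1.19 to 1.29). SAG13 had 0 dark reads and 7 light reads, too few for a ratio. SAG12 had none in either.

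The dark and light libraries also differed in markers outside senescence. All 11 seed storage and oil-body markers, among them the cruciferin CRA1, were at least 2-fold higher in the dark library, with a summed level of 7297 CPM against 29.4 and none at 0 in either library. All 4 leaf markers were at least 2-fold lower, with a sum of 12880 CPM against 56130. Of the root markers 1 was higher and 2 were lower, and NRT2.1 was at 0 in the dark library. With 1 library each, a difference between the libraries in seedling stage or tissue and an effect of darkness cannot be told apart.

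**Figure D2:**
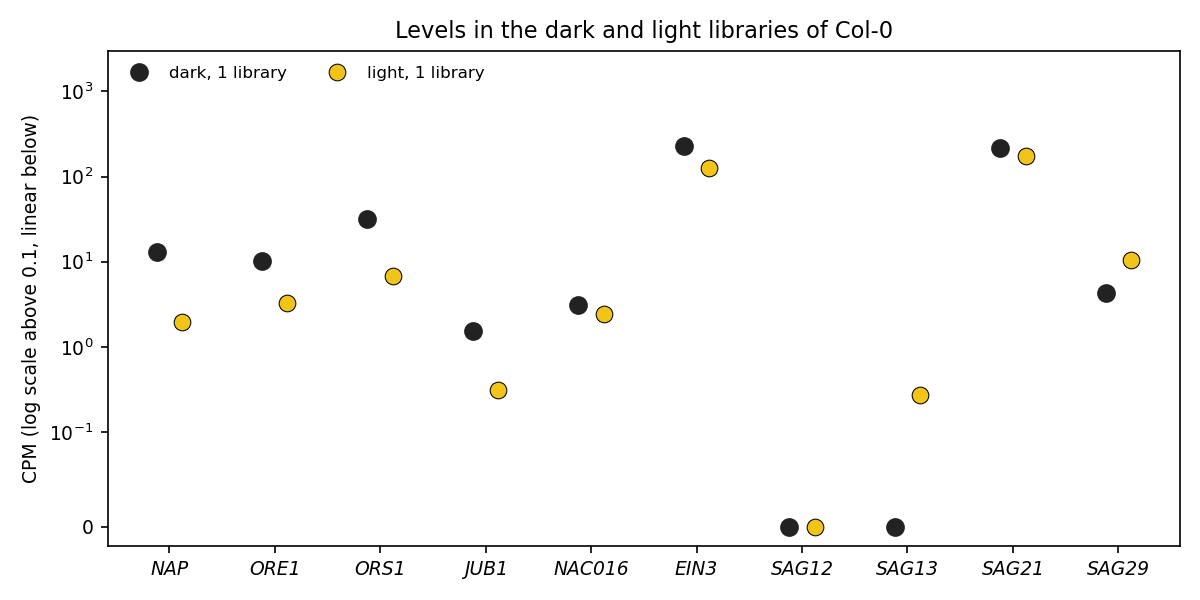
Level of each member in the dark and light libraries in CPM (log axis above 0.1, linear below), 1 library each. NAP, ORE1, ORS1 and JUB1 are at least 2-fold higher and SAG29 at least 2-fold lower in the dark library, and SAG12 is at 0 in both.

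Set side by side, NAP was -2.26 in epl1a/b and 2.65 in the dark library on the log2 scale, and ORE1 was -0.82 and 1.61. SAG29 was lower in both comparisons, at -1.95 and -1.26. SAG21, at 2.16 in epl1a/b, was at 0.30 in the dark library. ORS1 was at 2.24 in the dark library with no call in epl1a/b. The tables were normalised separately, and the difference between the comparisons was not tested.

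**Figure D3:**
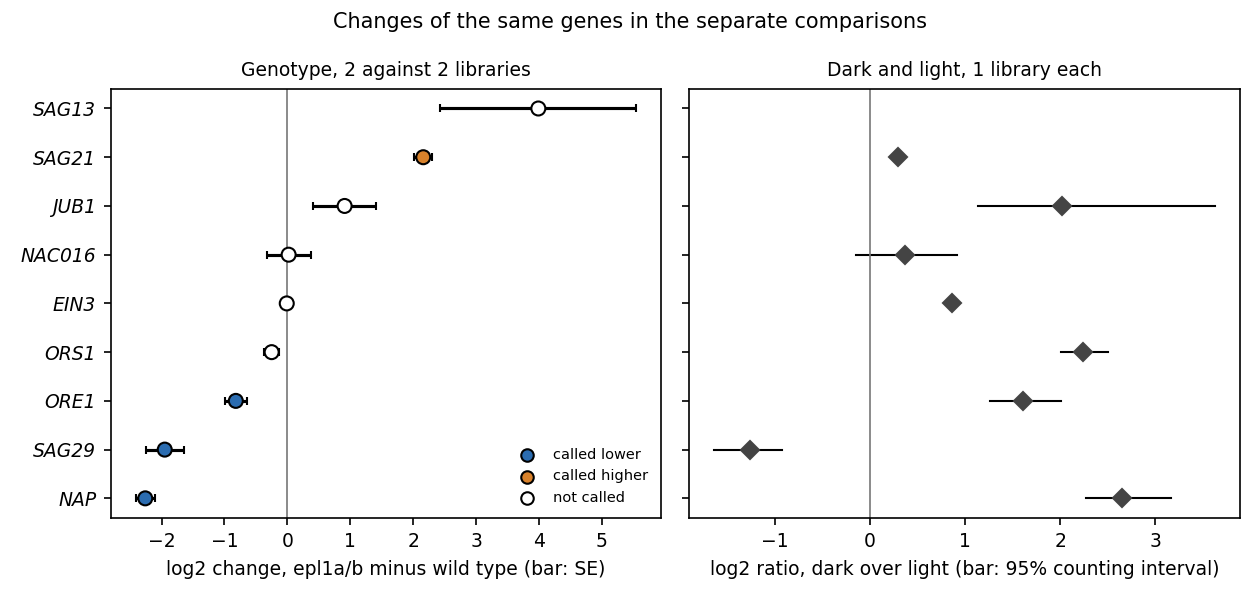
Left, log2 change in epl1a/b against wild type (bar, SE; 2 libraries per genotype), filled where called; right, log2 ratio of dark to light (bar, 95% counting interval; 1 library each). NAP and ORE1 lie left of 0 in the first panel and right of 0 in the second, while SAG29 lies left in both; SAG13 has too few reads for the second panel.

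Other NAC genes with an miR164 site were set beside ORE1 after their values were seen. NAC100 (158 and 169 normalised counts in wild type, 273 and 248 in epl1a/b) and NAC080 (229 and 256, then 293 and 339) rose by 0.67 ± 0.12 and 0.38 ± 0.12 on the log2 scale, with limma adjusted p = 0.00271 and 0.0322. CUC2, a boundary gene, rose by 1.32 ± 0.46, with 14 wild type and 42 mutant reads (limma adjusted p = 0.0493). NAC100 was called in all 4 fits that left out 1 library, CUC2 in 1, and NAC080 lost its call in each. NAC1 and CUC1 were not called, with changes of 0.19 and 1.70. Of the 6 NAC genes found with a site, only ORE1 was called lower. Of the 4 fits that left out 1 library, only that without wild type replicate 1 kept this call. Over all genes tested 22.5% were called higher and 24.1% lower, and the 6 genes were not tested against these shares. In the dark library the log2 ratios were 2.21 for NAC1, 1.61 for NAC100 and 1.04 for NAC080, beside 1.61 for ORE1, and -0.07 for CUC1 and -1.37 for CUC2.

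Among 19 other NAC factors with a described part in senescence or stress, 12 rose and 1 fell in epl1a/b, with a median log2 change of 0.46. For this and the lists that follow, the shares over all genes tested were 22.5% called higher and 24.1% called lower. In the dark library 15.7% of all genes with a ratio were at least 2-fold higher and 19.4% at least 2-fold lower. The lists were not tested against these shares. ANAC055, a factor of jasmonate and dehydration responses, had the largest called rise, from 19.0 and 18.7 normalised counts in wild type to 56.6 and 31.8 (1.13 ± 0.34, limma adjusted p = 0.0269), a call kept in 1 of the 4 fits that left out 1 library. NAC017, a membrane-bound factor of mitochondrial stress signalling, fell from 1211 and 1190 to 910 and 896 (-0.41 ± 0.07, limma adjusted p = 0.00231). The count of rises was 6 to 8 whenever 1 library was left out. Under darkness 8 of 18 were at least 2-fold higher, ANAC055 having a log2 ratio of 2.76 and ATAF2 the lowest of those at 5 CPM or more, -0.44.

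Of 10 WRKY factors of senescence 4 rose and 1 fell, with a median of 0.76, and 1 to 3 rose when 1 library was left out. WRKY45, which promotes senescence through gibberellin signalling, rose from 89.1 and 148 normalised counts to 385 and 288 (1.53 ± 0.28, limma adjusted p = 0.00740), with the call lost without epl1a/b replicate 1 (adjusted p = 0.0557). WRKY6 fell from 536 and 547 to 368 and 434 (-0.44 ± 0.10, limma adjusted p = 0.01001), a call kept in 1 of those 4 fits. In the dark library 2 of 9 were at least 2-fold higher and 5 lower, from 0.48 for WRKY57 to -1.02 for WRKY22 among those at 5 CPM or more.

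Of 15 other ethylene genes 3 rose and 3 fell, with a median of -0.02, and at most 2 moved in either direction when 1 library was left out. With each library scaled to the same total the median was 0.22. EIL1, the close paralogue of EIN3, fell from 1894 and 1714 normalised counts to 1394 and 1434 (-0.35 ± 0.08, limma adjusted p = 0.00764). ERF1, a direct target of EIN3, rose from 4.23 and 4.15 to 21.3 and 9.28 (1.55 ± 0.50, limma adjusted p = 0.0361). Each was called in 1 of the 4 fits that left out 1 library. Under darkness 5 of 15 were at least 2-fold higher and 1 lower, from EBF2, an F-box protein that removes EIN3 (1.38), to ACS6, an enzyme of ethylene synthesis (-2.51), among those at 5 CPM or more.

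Of 11 genes described as targets of the senescence NAC factors 3 rose and 3 fell, with a median of 0.18, and 1 rose and at most 2 fell when 1 library was left out. PAO, which opens the chlorophyll ring, fell from 1643 and 2148 normalised counts to 1353 and 1127 (-0.60 ± 0.15, limma adjusted p = 0.0204). DREB2A, a drought and heat factor, rose from 41.1 and 31.2 to 111 and 87.9 (1.44 ± 0.23, limma adjusted p = 0.00189). SAG113, a phosphatase gene activated by NAP, rose by 0.39 ± 0.12 (limma adjusted p = 0.0259), while NAP fell. With 1 library left out DREB2A was called in all 4 fits and PAO in 1, and SAG113 lost its call in each. SAG113 in the dark library was at 40.4 CPM against 2.64 (log2 ratio 3.89), the only one of the 11 at least 2-fold higher, and PAO was at -0.92.

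Of 18 other SAG markers 7 rose and 5 fell, with a median of 0.25, and 3 to 8 rose and 3 or 4 fell when 1 library was left out. SAG14, a blue copper-binding protein, rose from 19.3 and 50.6 normalised counts to 347 and 182 (2.96 ± 0.59, limma adjusted p = 0.0193). SEN1, a classical dark-induced marker, fell from 538 and 403 to 213 and 185 (-1.23 ± 0.15, limma adjusted p = 0.000496). SEN1 was called in all 4 fits that left out 1 library, and SAG14 in all but the fit without epl1a/b replicate 1 (adjusted p = 0.0507). In the dark library SEN1 was at 193 CPM against 9.60 (log2 ratio 4.32) and SAG14 at 1.18 against 11.6 (-3.21), and 7 of 18 were at least 2-fold higher and 3 lower.

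Of 16 genes of autophagy, proteolysis and nutrient recycling 3 rose and 5 fell, with a median of -0.24, which was 0 with each library scaled to the same total. When 1 library was left out, 1 to 3 rose and 3 to 5 fell. ATG8F, a ubiquitin-like protein of the autophagosome, fell from 2036 and 2045 normalised counts to 693 and 684 (-1.57 ± 0.07, limma adjusted p = 3.26e-06). ATG8G, of the same family, rose from 90.0 and 121 to 189 and 183 (0.82 ± 0.17, limma adjusted p = 0.00585). ATG8F was called in all 4 fits that left out 1 library and ATG8G in 2. Under darkness 9 of 16 were at least 2-fold higher, from ATG8G (1.63) to ATG7 (0.05).

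SAG29 was also set beside the other sugar exporters of its clade. SWEET13 rose from 136 and 161 normalised counts to 714 and 618 (2.16 ± 0.12, limma adjusted p = 9.69e-06) and SWEET11 from 3002 and 2701 to 5583 and 4703 (0.85 ± 0.10, limma adjusted p = 0.000401), so 2 of the 5 tested rose, both in all 4 fits that left out 1 library too. SWEET12 was at 432 and 450 in wild type and 523 and 384 in epl1a/b, with overlap. SWEET14 and SWEET10 were added after their values were seen. SWEET14 (41.2 and 39.4, then 15.4 and 28.4) and SWEET10 (2.41 and 39.1, then 0.892 and 0) were lower in both epl1a/b libraries, as SAG29 was, with log2 changes of -0.91 ± 0.34 and -3.09 ± 1.19 that did not pass the test (limma adjusted p = 0.0592 and 0.0800). SWEET14 was called in only 1 of 13 alternative analyses, that without epl1a/b replicate 2 (-1.33). SWEET10 was called in 2 of the 9 alternatives that gave it a result. These were DESeq2 (-5.56, adjusted p = 0.0115) and the crossed replicate block, which was added after seeing the data. In the dark library SWEET11 was at 501 CPM against 75.4 (log2 ratio 2.73) and SWEET12 at 118 against 28.4 (2.05). SWEET13 (6 dark and 46 light reads, log2 ratio -2.30) and SWEET14 (9 and 73 reads, -2.47) were lower there, as SAG29 was.

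**Figure D4:**
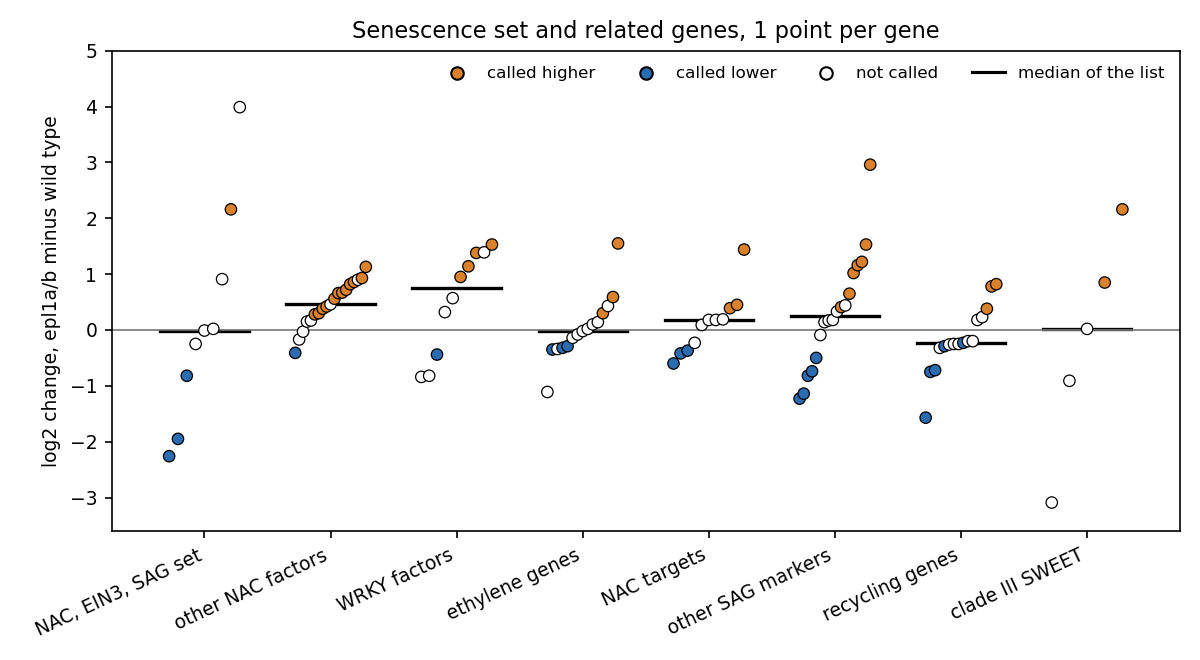
Log2 change in epl1a/b against wild type for each tested gene of the senescence set and 7 related lists, filled where called higher or lower, with a bar at each list's median. The 10-gene set spans -2.26 to 3.99 around a median of -0.01, and the other NAC factors lie mostly above 0.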

How the data were processed

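RNA was measured in 6 seedling libraries. The submitters' processing notes name HISAT2, featureCounts, edgeR and TAIR10, with no version or setting, and the labels give single-end 50 bp and paired-end 150 bp reads without saying which library had which. The genotype table holds a non-negative signal which the file headers call normalised read counts as deposited by the authors. The dark and light table holds raw counts deposited per gene. Normalised values were inverted to whole reads for 32548 of 32548 genes (100%, tolerance 1e-06). Both tables' columns were all mapped to samples.

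Genes with at least 1 normalised count in at least 2 libraries (23658) were tested on log2(value + 1) with limma 3.58.1 (R 4.3.3, eBayes with trend and robust settings, genotype only), with Benjamini-Hochberg adjustment over all of them and a threshold of 0.05. The design had named edgeR's quasi-likelihood test for raw counts, and limma was used because the values are normalised. Fold changes on this scale understate changes of low genes. Dark and light counts were scaled with TMM factors of edgeR 4.0.16. Ratios used a prior count of 2 and genes with at least 10 counts in total. Alternatives included DESeq2 1.42.0. The limma and edgeR fits were tested on simulated data. Intervals and limits at 0 reads cover counting error only.

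The members and lists were chosen with earlier results of these data known. The rule for named genes took all members, EPL1A and EPL1B, the called gene with the largest rise and fall of each list, and its highest and lowest dark ratio at a mean of at least 5 CPM. Other genes were named after their values were seen. Sequences, exons and coordinates come from RefSeq's TAIR10.1 annotation, and the files give no coordinates.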

Additional observations from a re-analysis of the deposited data

How the results depend on the processing

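Across 13 alternatives to the genotype analysis, NAP (-2.41 to -2.02), SAG21 (1.94 to 2.39) and SAG29 (-2.32 to -1.58) were called in the same direction every time, with a highest adjusted p of 0.00819, 0.00805 and 0.0309. ORE1 was called in 10 and SAG13 in 4, each count including the crossed replicate block described below, which was not planned. The number of members called higher, 1 in the limma analysis, was 2 with each library scaled to the same total, 2 with edgeR, 2 with DESeq2 and 1 to 2 with 1 library left out, where 2 to 3 were called lower. EIN3 changed from -0.01 to 0.23 with the same-total scaling, and was 0.01 with edgeR and 0.04 without epl1a/b replicate 2, with no call in either. NAC016 (-0.40 to 0.44) was never called. Leaving out 1 library also lowered the number of all genes called higher from 5333 to 3288 when wild type replicate 1 was missing, and to 2905 and 2660 when the first or second mutant replicate was. With the same-total scaling 8822 genes were higher and 3672 lower, against 5333 and 5707, and the calls in the lists became 15 of 19 other NAC factors higher, 6 of 10 WRKY factors, 6 of 15 ethylene genes and 7 of 11 NAC targets. Of the 92 tested NAC-family genes 46 were higher and 2 lower with that scaling, against 30 and 6. NAC017, WRKY6, EIL1, PAO, NAC069, NAC089 and NAC014 kept their direction but lost their call there. The replicate numbers are shared between genotypes, but same-numbered libraries did not deviate together (correlation -0.14). The fit with the replicate block gave 1 member higher and 3 lower, and 1 NAC target higher and 1 lower. The crossed replicate block, added after seeing the data, gave 3 members higher (SAG13, SAG21 and JUB1) and 3 lower. In the dark comparison 5 members were at least 2-fold higher with library totals, and 2 were lower with no filter on low counts, SAG13 being added on 7 reads. The cause of these differences was not tested. Depth limits SAG12 and the MIR164 genes, with 0 or few reads, and NAC016 in the dark comparison.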

Other observations

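The wild type libraries of the genotype table and the light library are all labelled Col-0, yet several members stood at other levels in them. As RPM (reads scaled by each library's total assigned reads), NAP was at 18.0 and 17.1 in the wild type libraries and 1.83 in the light library, SAG29 at 53.1 and 90.4 against 9.67, and ORE1 at 9.36 and 13.1 against 3.05. SAG21 was at 54.3 and 74.0 against 160.5, and EIN3 at 154 and 156 against 117. NAC016 in the light library, at 2.23, lay between its wild type levels of 1.33 and 2.50, and SAG12 was at 0 in each. The dark library's NAP level, 14.0 RPM, was lower than that of either wild type library. Its ORE1 level, 11.1 RPM, lay between those of the wild type libraries. Its ORS1 level, 34.6 RPM, was above both of them, at 15.4 and 14.6. The levels come from separate tables, so these are values side by side with no test.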
